A study of Mus musculus with 4 samples.

Results

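The genes Bax, Bbc3, Bcl2 and Bcl2l1 belong to the Bcl2 family, which sets whether a cell lives or dies through its mitochondria. They are the 4 genes of this description, taken from a list of places where the chromatin remodeller CHD4 was called above background in mouse spermatogonial cells. Every row of the list that carried 1 of these 4 gene symbols was taken, and rows with the same start and end were joined. This gave 4 intervals, 1 per gene, of 1849 in all, and 4 of the 1517 genes that the list names. The presence of an interval is what chose the genes, so they were selected on the call of CHD4 over IgG, and their positions, folds and widths, which come from the same call, are given as a description with no test.

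CHD4 is the motor subunit of NuRD, a complex that moves nucleosomes and removes acetyl groups from histones. The title of the series places it in the survival of spermatogonial stem cells, the cells that renew the male germ line. The assay was CUT&Tag, in which a transposase tethered to an antibody cuts and tags the DNA next to the protein of interest. By the labels, 2 samples received CHD4 antibody and 2 received an IgG control as biological replicates, all from C57BL/6 mice and from dissociated testes. The control antibody is labelled as a rabbit antibody against mouse IgG that carries horseradish peroxidase. No mutation or treatment is labelled in either group, the age of the animals is not labelled, and the way spermatogonia were enriched is not stated in them.

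In the Bcl2 family, BAX is an effector that forms pores in the outer mitochondrial membrane and lets cytochrome c out, which starts the caspase cascade. BCL2 and BCL-XL, the long product of Bcl2l1, are survival factors that hold effectors in check. PUMA, the product of Bbc3, is a BH3-only protein that binds the survival factors and frees the effectors, and its gene and Bax are textbook targets of the tumour suppressor p53. In the testis, proteins of this family take part in the normal loss of germ cells.

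The CHD4 interval of Bax lay over the start of the gene, and the sequence there is shown because it is the only RefSeq promoter window of the 4 genes that an interval overlapped. RefSeq promoter sequences (build GRCm38.p6, which shares mm10 coordinates) were found for all 4 genes, as 8 windows that run from 250 bases before a start to 50 after it. Of these windows, 1 overlapped a CHD4 interval, as did 1.41% of all 32851 windows. The 250 bases before the Bax start, chr7:45466899-45467148 on the minus strand, are printed with the 79 bases inside the interval in capitals.
Bax: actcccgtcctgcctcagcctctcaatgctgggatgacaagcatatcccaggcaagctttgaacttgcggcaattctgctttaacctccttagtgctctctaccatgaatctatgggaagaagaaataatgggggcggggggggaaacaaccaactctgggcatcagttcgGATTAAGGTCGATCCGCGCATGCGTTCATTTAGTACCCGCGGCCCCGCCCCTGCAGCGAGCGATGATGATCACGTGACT

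The capitals held 10 CpG dinucleotides in 79 bases, and the 171 bases before them held 4. Their G and C content was 59.5%, against 51.5% before them. The capitals also held the only E box (CACGTG, its own reverse complement) of the 250 bases, and 1 of the 2 GC boxes (GGGCGG on either strand). An E box is present in 6.02% of all promoter windows over the same 250 bases, and a GC box in 32.7%. Among the 462 windows that overlapped an interval the shares were 9.09% and 64.9%.

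The Bcl2 interval lay beyond its promoter window. It began 128 bases upstream of the window's far end, so none of the printed bases is inside it. The 250 bases before the RefSeq start of Bcl2, chr1:106714291-106714540 on the minus strand, are shown for their contrast with Bax, with GC boxes of either strand in capitals.
Bcl2: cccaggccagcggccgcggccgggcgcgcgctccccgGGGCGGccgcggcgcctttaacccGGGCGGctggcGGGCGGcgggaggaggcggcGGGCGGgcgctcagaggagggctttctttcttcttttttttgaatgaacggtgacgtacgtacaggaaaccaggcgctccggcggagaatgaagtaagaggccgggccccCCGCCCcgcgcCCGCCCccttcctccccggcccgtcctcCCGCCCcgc

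This Bcl2 stretch is rich in G and C (74.8%) and holds 36 CpG dinucleotides, more than 97.4% of all windows, with 7 GC boxes. The Bax stretch was nearer the middle, with 54% G and C and 14 CpG dinucleotides, more than 70.6% of windows. The median over all windows was 6 CpG dinucleotides (quartiles 2 and 16), and over the 462 windows that overlapped an interval it was 17 (11 and 23).

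The Bbc3 gene has 3 RefSeq windows, with 23 to 37 CpG dinucleotides and 72.4 to 81.6% G and C. The RefSeq bounds of the gene begin upstream of all 3, at 16308398. The window of the most upstream of the 3 starts holds a match to the p53 consensus, a pair of 10-base half-sites in direct contact. The match has 3 mismatches in 20 bases and keeps both core motifs. It is shown because Bbc3 is a p53 target, with the match in capitals (chr7:16309486-16309505, plus strand).
Bbc3: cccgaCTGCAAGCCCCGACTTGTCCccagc

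The 3 RefSeq windows of Bcl2l1, none of them near its interval, were poorer, with 0, 11 and 12 CpG dinucleotides and 47.6 to 53.2% G and C. None held a GC box or an E box.

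At the stringency of the Bbc3 match 1.14% of all windows held a match, and no other window of the 4 genes did. The allowance of 3 mismatches was chosen after none of the 8 windows matched with 2. The Bbc3 interval lay 3.39 kb downstream of the match, so the CHD4 signal called for this gene did not cover these letters.

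**Figure D1:**
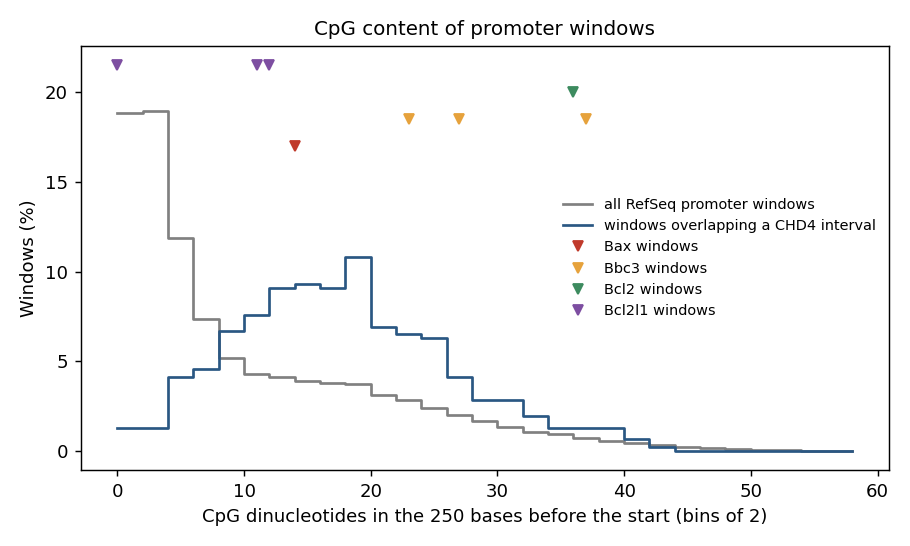
CpG dinucleotides in the 250 bases before each RefSeq start (x axis, bins of 2) against the share of windows (y axis, percent), for all 32851 windows (grey) and for the 462 that overlapped a CHD4 interval (blue). Triangles mark the windows of the 4 genes at an arbitrary height: Bcl2 at 36 and the Bbc3 windows at 27 and 37 lie above the upper quartile of the blue curve, 23, where the other Bbc3 window stands, Bax at 14 is near its middle, and Bcl2l1 is at 0, 11 and 12.

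The effector gene Bax (gene ID 12028) had an interval at chr7:45466643-45466977, 335 bp wide, in mm10 coordinates counted from 1. It contains the transcript start to which the authors assigned it, at 45466836, and the RefSeq start at 45466898. Of its length, 77.9% lay within the bounds of the gene, which is 5.21 kb long and on the minus strand. The summit, the point of highest signal, was 99 bp inside the gene by the assigned start. An interval that contains a transcript start is 1 of 290 in the list (15.7%).

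The fold of CHD4 over IgG at the Bax interval, the authors' own value as are all folds given here, was 4.62, with a q of 0.00205. The list states no read numbers, but they could be recovered from fold and p as described under processing. The Bax summit held 30 CHD4 fragments (exact 95% Poisson interval 20.2 to 42.8). The IgG expectation was 2, a whole number that corresponds to 2 IgG fragments over the summit itself. With the expectation held fixed, the counting error of CHD4 alone gives a fold from 3.23 to 6.45. The IgG count is the weaker side, as 2 fragments have an exact interval of 0.242 to 7.22, and at its upper end the fold would be 1.69. At its lower end the fold would be 10.3, with the expectation kept at no less than 0.346, the lowest of any interval. IgG counts in wider windows around Bax were not recovered and did not enter this value. All such counting ranges cover counting error only, since the list has no value per sample and thus no spread between replicates. They make no allowance for the fact that only summits that passed the call are listed, Bcl2 with the lowest count among them.

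The BH3-only gene Bbc3 (gene ID 170770) had an interval at chr7:16312894-16313146, 253 bp wide, on the same chromosome as Bax but 29.2 Mb away. The authors class it as promoter, within 1 kb, because it lies 371 bp before the start of a short transcript at 16313517. That start is inside the gene. The RefSeq bounds of Bbc3 run from 16308398 to 16318334 on the plus strand, and the whole interval falls between them. The 3 RefSeq starts of the table lie upstream, and the nearest, at 16310431, is 2.46 kb from the edge of the interval. By these starts the Bbc3 interval is internal to the gene and not at its promoter. Whether it covers an exon or an intron was not analysed here. The authors place 34.1% of all intervals within 1 kb of a start. Of the 517 such promoter intervals whose gene has a start in the RefSeq table, 86 (16.6%) likewise lay more than 1 kb from every such start.

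At Bbc3 the fold was 3.97, the lowest of the 4, with a q of 0.00215, although its 36 CHD4 fragments (25.2 to 49.8) were the most of the 4. The IgG expectation was also the highest, at 3.14. This value is that of 17 IgG fragments in the surrounding 1 kb, on the windows the caller uses by default. The fold ranged from 2.85 to 5.41 with the CHD4 count and from 2.73 to 5.81 with the IgG count (9.9 to 27.2 fragments).

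The survival gene Bcl2 (gene ID 12043) had an interval at chr1:106714668-106714951, 284 bp wide and 394 bp before its assigned start at 106714274. It lay wholly outside the gene, 378 bp upstream of its RefSeq start, and the summit was 442 bp upstream of the assigned start. The nearer edge of the next gene on that side, Kdsr, an enzyme of sphingolipid synthesis, lay 5.46 kb from the interval. Bcl2 is 176.1 kb long, and none of the other intervals in the list lay within it or within 100 kb of it.

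The Bcl2 fold of 4.49 rested on the fewest fragments of the 4 genes. Its 12 CHD4 fragments (6.2 to 21.0) are the lowest number in the list, found at 49 intervals. The IgG expectation was 0.369, that of 2 fragments in 1 kb, close to the lowest expectation of any interval, 0.346. Its q of 0.0149 was the weakest of the 4, and it was the only one above 0.01. The fold ran from 2.67 to 7.29 with the CHD4 count and from 2.63 to 4.57 with the IgG count. The value of 4.57 is set by a limit, as the expectation was not let fall below 0.346. The deposited fold has 1 added above and below, which weighs most at low numbers: with nothing added the ratio was 13.9 at Bcl2, against 6.43 at Bax, 6 at Bcl2l1 and 4.92 at Bbc3. The place of Bcl2 in the order of the 4 therefore depends on that addition, below Bax with it and the highest without it.

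The survival gene Bcl2l1 (gene ID 12048) was the only 1 of the 4 whose interval the authors do not class as promoter. Its interval, chr2:152806228-152806578, was 351 bp wide and lay 22 kb downstream of the assigned start at 152828535, in intron 2 of 2 of an Ensembl transcript on the minus strand. The nearest of 3 RefSeq starts was 21.9 kb away. The fold was 4.33 with a q of 0.00205, from 28 CHD4 fragments (18.6 to 40.5) over an expectation of 2, and it ran from 2.99 to 6.12 with the CHD4 count. With the IgG count at its upper bound, as at Bax, it would be 1.58, and at the lower bound 9.66 under the same limit on the expectation.

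A further interval lay inside Bcl2l1 but carries the name of another gene. At chr2:152786135-152786327, 19.9 kb from the first, the list gives an interval of 193 bp to Cox4i2, a subunit isoform of cytochrome c oxidase, because the start of Cox4i2, 31 kb away, is the nearest. The authors' own annotation places it in the same intron of Bcl2l1, and in the RefSeq table it overlaps only that gene. Its fold was 3.99 from 19 CHD4 fragments (11.4 to 29.7) over 1.29, the expectation of 7 IgG fragments in 1 kb, with a q of 0.039. Counted by position, Bcl2l1 thus held 2 intervals, both far from its starts. The third interval within 100 kb of Bcl2l1 was named for Foxs1, a forkhead factor, and lay 94.5 kb outside the gene with a fold of 5.08.

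Bax also had a neighbour. An interval named for Ftl1, the ferritin light chain, lay 0.544 kb beyond the 3′ end of Bax, between both genes and 1.01 kb upstream of the Ftl1 start. It held more CHD4 fragments than any of the 4 genes, 50 (37.1 to 65.9), but over an IgG expectation of 7, so that its fold was 2.8 (2.11 to 3.66 with the CHD4 count) and its q 0.0226. No other interval lay within 100 kb of Bax, and none within 100 kb of Bbc3.

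**Figure D2:**
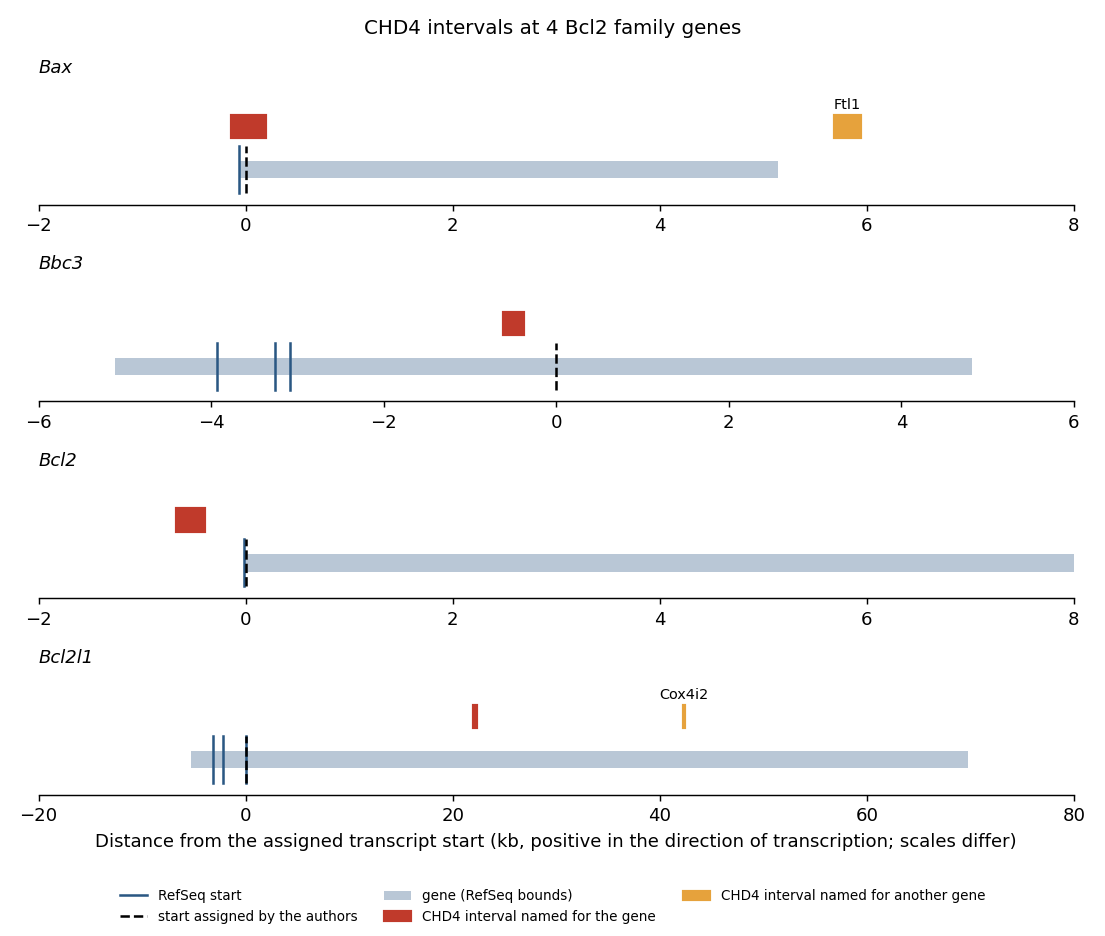
Position of CHD4 intervals (red, named for the gene; orange, named for another gene) at Bax, Bbc3, Bcl2 and Bcl2l1; the x axis is the distance in kb from the start the authors assigned (dashed), positive in the direction of transcription, with the gene in grey-blue and RefSeq starts as blue lines. Scales differ between panels and the Bcl2 gene runs on beyond its panel; the Bbc3 interval lies inside the gene, 2.46 kb from the nearest RefSeq start, and the Cox4i2 interval lies inside Bcl2l1.

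The 4 folds, from 3.97 to 4.62, all lay below the median of the list, which was 4.76 (quartiles 4.03 and 5.64). For Bcl2 this place depends on the 1 added above and below. With nothing added the median ratio of the list was 7.72 and the upper quartile 12.6, and Bcl2, at 13.9, lay above both. Bax, Bcl2l1 and Bbc3 stayed below that median. Ranked from the highest fold, Bax stood at 977 of 1849, Bcl2 at 1095, Bcl2l1 at 1196 and Bbc3 at 1421. Their ranges of counting error overlapped throughout, so the order of the 4 among themselves cannot be told from these counts. Among the 631 intervals that the authors place within 1 kb of a transcript start the median fold was 4.32, with Bax and Bcl2 above it and Bbc3 below. Among the 493 intronic intervals it was 5.13, and Bcl2l1 lay below it. Widths of 253 to 351 bp stood within the quartiles of the list, 224 and 383 bp. Each of the 4 intervals had a single summit, as did 90.2% of all.

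In depth, Bax, Bbc3 and Bcl2l1 were near the middle of the list, whose median was 27 CHD4 fragments (quartiles 19 and 40). Bcl2 was at its lower edge. Bax and Bcl2l1 shared an IgG expectation of 2, to within 0.0006, with 151 others. The value of −log10 q was 2.69 at Bax and Bcl2l1, 2.67 at Bbc3 and 1.83 at Bcl2, against a median of 2.9.

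**Figure D3:**
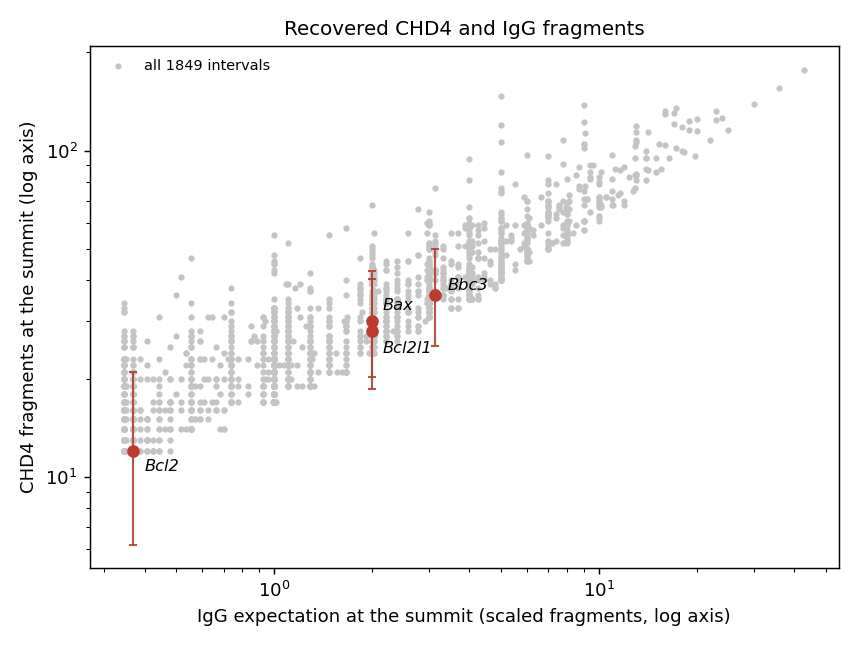
CHD4 fragments at the summit (y axis, log scale) against the IgG expectation there (x axis, scaled fragments, log scale) for all 1849 intervals (grey) and for the 4 genes (red, bars are exact 95% Poisson intervals). Bax, Bcl2l1 and Bbc3 lie near the lower edge of the cloud at their IgG expectation, and Bcl2, with 12 fragments over 0.369, lies in its lower left corner.

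By likeness in fold, width and −log10 q, each standardised, the intervals nearest to Bax among the 630 others of its class were those of Tmem192, a lysosomal membrane protein, and Sec31a, a coat protein of vesicles from the endoplasmic reticulum. Those nearest to Bbc3 were at Rps27l, a ribosomal protein relative, and Hnrnpl, a splicing regulator. Those nearest to Bcl2 were at Cds2, an enzyme of phospholipid synthesis, and at Stard8. For Bcl2l1, among 492 other intronic intervals, they were at Igf1r, the receptor of insulin-like growth factor 1, and Syne3, a protein of the nuclear envelope. Distances ranged from 0.0402 to 0.194 SD, over 1 peak list and no single samples.

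Across the wider Bcl2 family, 5 of 25 genes (20%) were named for an interval, where 6.1% of all 21779 protein-coding genes were. The 4 genes described here are among the 5 and were chosen because they have one, so this share is not independent evidence about the family. The fifth was Bcl2l13, a mitochondrial relative that acts as a receptor in mitophagy. It had 2 intervals: 1 lay 0.108 kb before the start, with a fold of 4.84 from 34 fragments, and the other 29.8 kb after it, in an exon class, with a fold of 6.68 from 19 fragments over 0.369. Both of its folds were above those of the 4 genes, with counting ranges of 3.45 to 6.65 and 4.31 to 10.0 that overlap theirs.

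By role, 2 of 8 survival factors were named (Bcl2 and Bcl2l1), 1 of 3 effectors (Bax), 1 of 8 BH3-only genes (Bbc3) and 1 of 6 other relatives (Bcl2l13). Among the genes with no interval were Mcl1, a short-lived survival factor, the effector genes Bak1 and Bok, and the BH3-only genes Bid, Bad, Bcl2l11 (BIM) and Pmaip1 (NOXA). The closest interval to any of the 20 unnamed genes lay 2.72 kb from the survival gene Bcl2a1d and was named for Mthfsl, with a fold of 6. Bcl2l12, Bid and Mcl1 had an interval at 19.8, 26.9 and 31.8 kb, and the nearest to Bak1 was 343 kb away. For 14 of the 20 genes without one, no interval lay within 100 kb. By overlap with the gene body, 4 of 25 genes held an interval, where 4.29% of all genes did. By the authors' promoter class 4 of 25 were named, where 2.57% of all genes were. That class takes in Bbc3, whose interval lies 2.46 kb from its nearest RefSeq start. All of the genes counted but Bcl2l13 were chosen for having an interval, so neither share is independent evidence about the family. In the 924 intervals of highest fold 1 of the 25 was named, Bcl2l13, where 3.11% of all genes were named.

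Among genes of caspase activation and mitochondrial death outside the family, 3 of 20 were named (15%, beside 6.1% of all genes). The caspases gave 0 of 6, and the genes of mitochondrial release and the apoptosome 0 of 6. For groups of 6 genes, 0 cannot be told from a share of 6.1%. Inhibitors of the pathway gave 2 of 5. The list was chosen with earlier results of these data known. Its shares are therefore not independent evidence, and none was tested. Cflar, which encodes c-FLIP, a blocker of caspase 8 that acts at death receptors rather than at mitochondria, had an intronic interval 12.1 kb from its assigned start with a fold of 8.09 (5.55 to 11.5) from 27 fragments over 0.554. Birc2, which encodes the ubiquitin ligase cIAP1, had an interval over its start with a fold of 3.52 (2.63 to 4.63) from 47 fragments over 5. Vdac2, a mitochondrial channel known to bind BAK, had 2 intervals 4 kb and 1.93 kb before its start, with folds of 4.57 and 5.77.

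Of 20 genes of the p53 pathway, 2 were named (10%, beside 6.1%), both among the 15 p53 targets of the list. This list too was chosen with earlier results of these data known, and its share was not tested. Btg2, an antiproliferative gene, had an interval 3.79 kb before its start with a fold of 7.19 (5.39 to 9.43) from 48 fragments over 2. Sesn1, a stress-response gene, had 1 at 0.314 kb after the start with a fold of 2.77 (2.18 to 3.46) from 72 fragments over 10.5. None of the 5 genes of the p53 family and its regulators, Trp53, Mdm2 and Mdm4 among them, was named. For 5 genes this cannot be told from a share of 6.1%. By overlap with the gene body, 1 gene of this list held an interval, Gadd45a, a growth arrest gene whose interval was named for the non-coding transcript E230016M11Rik, with a fold of 4.18 from 20 fragments.

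**Figure D4:**
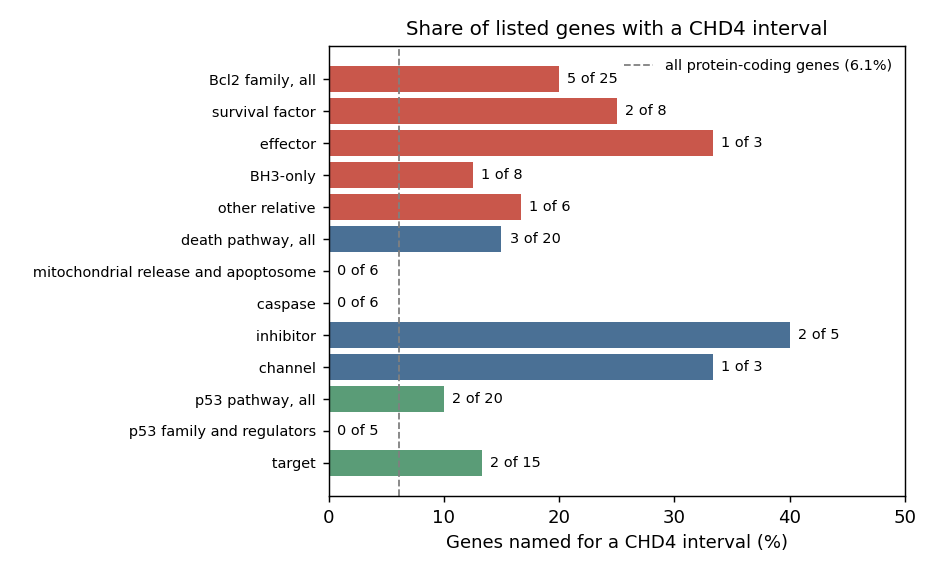
Share of the genes of each list and role that were named for a CHD4 interval (x axis, percent; counts beside the bars), with the share of all protein-coding genes, 6.1%, as a dashed line. The Bcl2 family includes the 4 genes that were chosen for having an interval, and all lists were chosen with earlier results of these data known. The caspases, the release and apoptosome genes and the p53 family and its regulators have none. At 5 or 6 genes per group, this cannot be told from 6.1%.

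**Figure D5:**
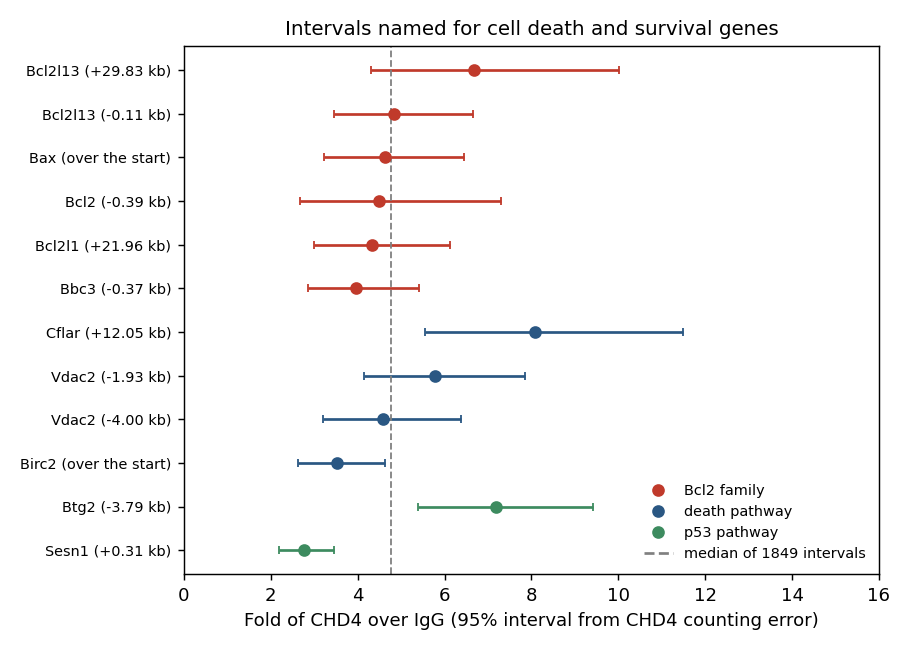
Fold of CHD4 over IgG (x axis) for every interval named for a gene of the 3 lists, with its distance from the assigned start; bars are 95% intervals from the counting error of CHD4 alone, and the dashed line is the median of all 1849 intervals. Bax, Bcl2, Bcl2l1 and Bbc3 have overlapping bars at folds of 3.97 to 4.62, and the folds of Cflar, 8.09, and Btg2, 7.19, are higher. The bar of Btg2 still overlaps all of theirs, and that of Cflar overlaps those of Bax, Bcl2 and Bcl2l1.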

How the data were processed

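CUT&Tag with CHD4 antibody (2 samples) and IgG (2 samples) is deposited as 1 peak list. The tools were MACS2 2.1.2, Bowtie2 2.2.5 and Trim Galore 0.5.0, and the build was mm10, per the submitters' processing notes. Duplicate handling and the way replicates were combined are stated in no source used. Per the file headers the authors deposited a fold (ratio of CHD4 to IgG) and its log2. The deposited −log10 p and −log10 q have lost their headers and were told apart by the deposited score, which is 10 times −log10 q without decimals. Intervals are given by mm10 position with the fold of their highest summit. Genes, distances and promoter classes are the authors'. With no value per sample there is no replicate error and no test between samples.

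Fragments were recovered from fold and p: scaled CHD4 fragments plus 1 over the IgG expectation plus 1, with a Poisson p. A scale of 0.429 solved all 2066 summits to within 0.0005 on −log10 p, 2064 of them with 1 solution. On 40 sampled summits no scale elsewhere solved more than 45%. All 1849 IgG expectations were then at the lowest value (129), whole (713), or whole multiples of 0.185 (821) or of that value divided by 10 (186), to within 0.0003, 0.0006, 0.003 of a multiple and 0.03 of a multiple, read as IgG fragments over the summit, in 1 kb or in 10 kb. Those window sizes are the caller's defaults and are stated in no source. The recovery was tested on simulated summits.

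Gene bounds, names and promoter windows came from RefSeq (GRCm38.p6), and 99.9% of the 1517 gene IDs matched. Genes that start before 3 Mb on chromosomes other than Y were left out. Named were the 4 genes, every gene of 3 pathway lists with an interval, other intervals within 100 kb, flanking genes and the 2 nearest intervals by likeness. Genes and lists were chosen with earlier results of these data known. Python 3.11.15, pandas 2.3.3 and scipy 1.17.1 were used.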

Additional observations from a re-analysis of the deposited data

How the results depend on the processing

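Of 32 recomputed values, 24 stayed within 1.5 times of the reported count or within the counting range of the fold, and 8 did not. Among those that stayed is the fold at the summit of highest −log10 q for each of the 4 genes. It could not differ, as each of these intervals has a single summit. Of the 4 genes, 3 had a promoter interval as the authors class it. With the start itself inside the interval the number was 1 (Bax), and in the 924 intervals of highest fold it was 0. It was 2 with q below 0.01 and 2 with at least 20 CHD4 fragments (both without Bcl2), and 2 by RefSeq starts (without Bbc3). The last 2 settings were chosen after seeing the data. The Bcl2 ratio was 13.9 with nothing added. In the intervals of highest fold, 1 Bcl2 family gene was named (Bcl2l13) and 1 p53 pathway gene. By promoter intervals alone 1 death pathway gene and 1 p53 pathway gene were named, and by gene body overlap 1 p53 pathway gene. These settings keep fewer intervals or use another gene assignment by construction. No paired analysis was possible because the list has no value per sample, and for the same reason no replicate could be left out. Depth limits all 4 genes: 12 to 36 CHD4 fragments over IgG expectations of 0.369 to 3.14 lie behind their folds. Those expectations rest on 2 IgG fragments over the summit at Bax and at Bcl2l1, and on 2 and 17 in 1 kb at Bcl2 and Bbc3.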

Other observations

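Marker genes of testis cell types were looked up in the same list, since the labels name the cells as spermatogonial. Of 12 genes of undifferentiated spermatogonia 1 was named, Nanos3, a translational regulator of germ cells, with an interval 6.8 kb before its start at a fold of 3.4 from 69 fragments. Of 8 Sertoli cell genes 3 were named: Gata4, Inhbb and Ctsl. Of 7 genes of myoid, endothelial and macrophage cells 3 were named, Acta2, Kdr and Cdh5, none within 10 kb of its start, and of 5 Leydig cell genes 0 were. The share over all protein-coding genes was 6.1%. A binding list does not measure expression, so these counts do not show which cells were present, and the part of other cell types in the intervals at Bax, Bbc3, Bcl2 and Bcl2l1 was not tested.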
